A study of Mus musculus with 2 samples.

Results

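The interferon-induced GTPases are large GTP-binding proteins that cells make in quantity after interferon reaches them. The 10 genes described here were found by their gene names in both deposited FPKM files, which list 44291 genes. They are 5 guanylate-binding proteins (GBPs: Gbp2, Gbp3, Gbp4, Gbp5 and Gbp7), 3 immunity-related GTPases (IRGs: Irgm1, Irgm2 and Igtp) and both mouse Mx genes (Mx1 and Mx2). RNA-seq was done on fibro-adipogenic progenitors (FAPs), mesenchymal cells of skeletal muscle that can become adipocytes. The cells were primary, wild type and of mouse origin, sorted from hind limb muscle according to the study's methods. The mice were young adult C57BL/6. How many animals gave the cells of each library is not stated. The PRP group received platelet-rich plasma and the control group received vehicle. Both groups were then kept in induction medium for adipocytes, in which DMEM with 20% FBS was given insulin at 10 µg/ml, dexamethasone at 0.25 µM and the phosphodiesterase inhibitor IBMX at 0.5 mM. The labels name the treatment PRP, while the study's text describes exosomes prepared from human PRP, and the names PRP and control are kept as labelled. Each group had 1 library. No difference between the libraries therefore has a replicate check, no test of the treatment was possible, and no p-value is given.

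GBPs, IRGs and Mx proteins share a GTPase domain and form oligomers on membranes. GBPs and IRGs are best known for gathering on the vacuoles in which bacteria and parasites live, and several GBPs help to start inflammasome signalling in the cytosol. Irgm1, Irgm2 and Igtp (also called Irgm3) sit on the cell's own membranes and keep the other IRGs inactive there. Mx proteins block the replication of many RNA viruses. GBPs and IRGs respond to interferon gamma and, for many members, to type I interferon, whereas Mx genes respond mainly to type I and type III interferon. Type I interferon acts largely through the interferon-stimulated response element (ISRE) in the promoters of its target genes. Interferon gamma acts largely through the gamma-activated site (GAS).

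Since these are the DNA elements through which interferon reaches the genes, the promoters were searched for their core letters. Windows came from RefSeq on GRCm38.p6 and ran from 250 bases before the transcription start to 50 bases from it on, 300 bases in all. Both strands were searched for the ISRE core GAAANNGAAA (TTTCNNTTTC on the other strand) and for the GAS core TTCNNNGAA, which reads the same on both strands. The table of windows held 7 of the 10 genes. Gbp4, Mx1 and Mx2 had no entry. Stretches of 40 bases around the ISRE core nearest to the 5′ end are printed on each gene's own strand, with the core letters in capitals, because they show the element that all 7 windows held. In Igtp and Irgm2 the capitals also mark the GAS core that lies just before it.
Gbp2: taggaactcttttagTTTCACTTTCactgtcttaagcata
Gbp3: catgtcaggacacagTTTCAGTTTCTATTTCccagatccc
Gbp5: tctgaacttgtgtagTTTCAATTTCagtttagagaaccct
Gbp7: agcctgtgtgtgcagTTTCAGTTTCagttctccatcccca
Irgm1: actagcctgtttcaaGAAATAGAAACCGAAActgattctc
Irgm2: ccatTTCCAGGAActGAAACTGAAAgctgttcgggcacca
Igtp: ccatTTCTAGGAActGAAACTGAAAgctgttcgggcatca
On GRCm38.p6 these stretches lie at chr3:142620589-142620628 (Gbp2, plus strand), chr3:142559984-142560023 (Gbp3, plus), chr3:142496754-142496793 (Gbp5, plus), chr3:142530268-142530307 (Gbp7, plus), chr11:48871426-48871465 (Irgm1, minus), chr11:58214898-58214937 (Irgm2, plus) and chr11:58199507-58199546 (Igtp, plus).

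The ISRE core was present in the promoter windows of 7 of these 7 genes, and in 3.44% of all 32851 windows in the table. Counted from the start, its first base lay between positions -64 and -24 in 6 of them and at position -165 in Gbp5. Gbp3 and Irgm1 each held 2 overlapping copies. Gbp3 had another RefSeq start with a window of its own, which held neither core. The GAS core was present in 4 of the 7 genes (Gbp5, Gbp7, Igtp and Irgm2), against 8.30% of all windows. The same 4 genes held both cores, a combination seen in 0.454% of all windows. In Igtp and Irgm2 2 bases separated the GAS core from the ISRE core, and the windows of these paralogs were identical at 247 of 271 aligned bases (91.1%). The RefSeq starts of Gbp2, Gbp3, Gbp5, Irgm1 and Irgm2 lie within the genes as GENCODE annotates them, downstream of their first base. A match of letters is a description of the sequence and does not show that a factor bound there.

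**Figure D1:**
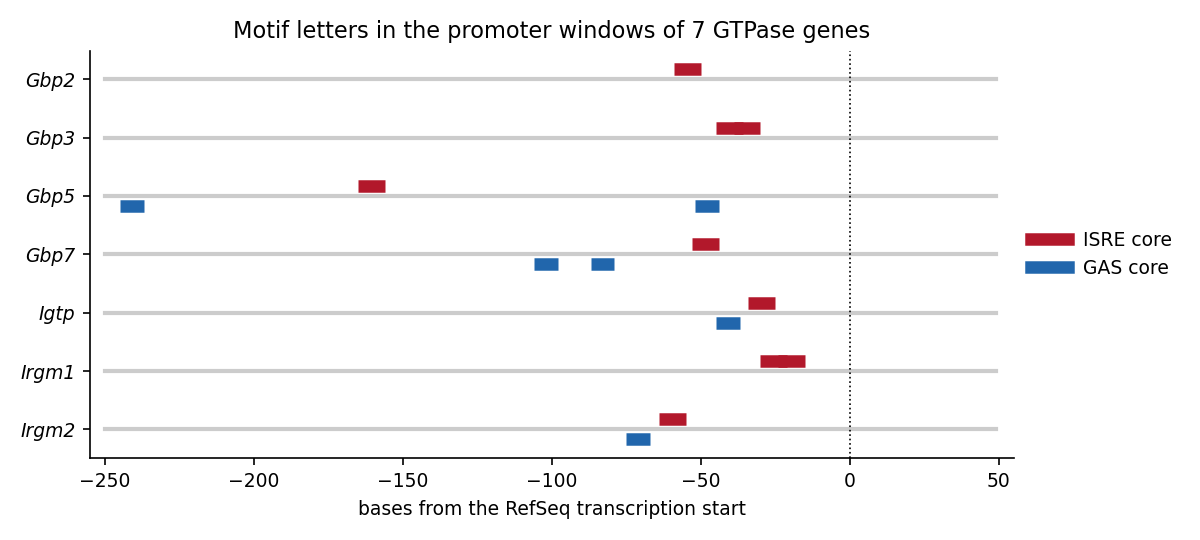
Positions of the ISRE core (red) and the GAS core (blue) in the promoter windows of 7 GTPase genes, in bases from the RefSeq transcription start (dotted line). All 7 windows hold the ISRE core, while the GAS core appears in Gbp5, Gbp7, Igtp and Irgm2.

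All 10 genes had a higher FPKM (abundance scaled to exon length and to library size) in the PRP library than in the control library. Their summed level was 216.6 FPKM with PRP and 78.3 FPKM in the control, a ratio of 2.76. Reads per gene could be worked out from the FPKM values, and each ratio is given with the exact Clopper-Pearson 95% interval that these counts allow, which covers counting error only and compares 2 libraries rather than 2 treatments. The interval lay above 1 for 10 of the 10 genes. A gene was tested, meaning that it entered the counts of genes, if its mean over both libraries was at least 1 FPKM. Of the 10 genes, 7 were tested and had reads that came out whole, and the interval lay above 1 for 7 of these 7, against 26.1% of the 12369 genes of that kind. The log2 fold change was taken on FPKM + 1, which understates the change of low genes. Of the 10 genes, 8 passed this filter, and 6 of these 8 were at least 2-fold higher on that scale, against 2.00% of the 13401 genes tested. The median log2 fold change of the 8 genes was 1.41, while the median of all genes tested was 0.01. Of all genes tested, 50.9% had a log2 fold change above 0. Gbp5 passed only through its level in the PRP library, so that its difference was built into the filter. Gbp4 and Mx1, with means of 0.240 and 0.926 FPKM, did not pass.

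**Figure D2:**
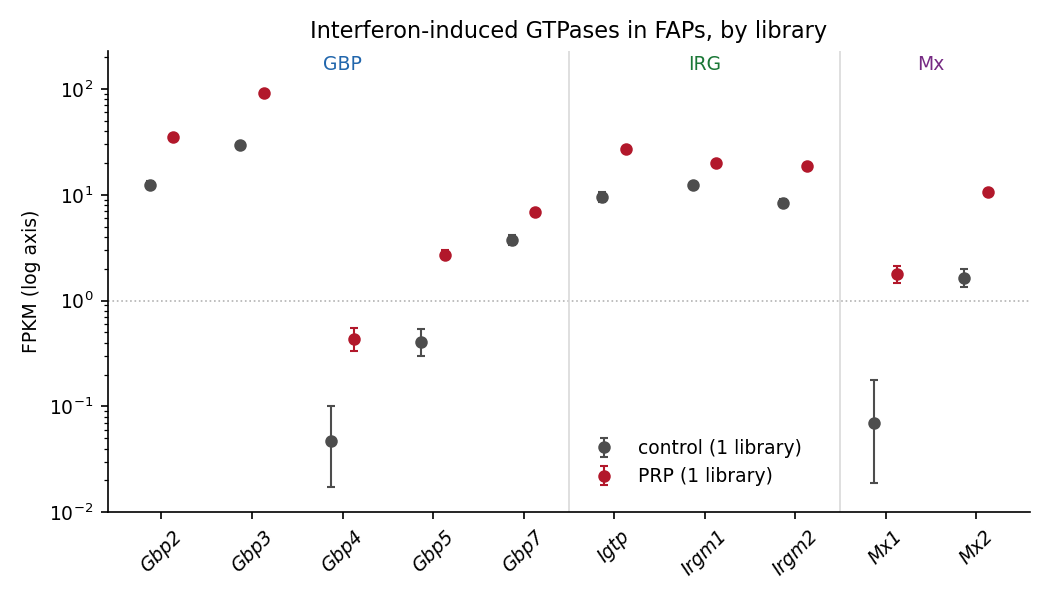
FPKM of the 10 GTPases (log axis) in the control library (grey) and the PRP library (red), 1 library each, with exact Poisson 95% intervals for counting error. Every PRP point is above its control point, and the levels span from 0.0469 FPKM (Gbp4, control) to 92.5 FPKM (Gbp3, PRP).

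Reads on genes numbered 40120843 with PRP and 34139741 in the control (a ratio of 1.18), and mitochondrial transcripts made up 2.06% and 3.70% of their summed FPKM. Of 9 FAP markers that were tested, 9 were lower with PRP, by ratios that ranged from 0.374 (Dpt) to 0.902 (Ly6a), with the collagen genes Col3a1 at 0.501 and Col1a1 at 0.542. Pdgfra, the receptor by which FAPs are usually recognised, was at 19.8 FPKM with PRP and 28.0 FPKM in the control. The part of these shifts in the GTPase result was not tested. Blood cells also express GBPs and IRGs, so their markers were read beside the result. The pan-leukocyte marker Ptprc was near 0, with 8 reads with PRP and 12 in the control, and the 12 macrophage markers summed to 11.9 and 11.5 FPKM, mostly from Cd68 (4.56 and 2.31 FPKM) and Lyz2 (4.91 and 7.57 FPKM). The 10 T and NK cell markers summed to 0.140 and 0.0779 FPKM, with 4 of the 10 at 0 reads in both libraries (Cd3g, Klrb1c, Ncr1 and Gzma). In bulk RNA a change in the share of cells that express a gene cannot be told apart from a change in the RNA per cell.

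The GBPs were the most abundant of the 3 families. Their summed level was 138.2 FPKM with PRP and 46.3 FPKM in the control, a ratio of 2.98. Gbp3 was the most highly expressed of the 10 genes in both libraries, at 92.5 FPKM with PRP and 29.7 FPKM in the control (12123 and 3313 reads). It was 3.11-fold higher with PRP (95% interval 2.95 to 3.29), and 69 of the 13401 tested genes had a larger log2 fold change than its 1.61. The gene lies on chromosome 3 at 142560026-142573209 of mm10, on the plus strand, in a cluster with 3 of the other GBPs.

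Gbp2, which is recruited to the vacuole of Toxoplasma and to cytosolic bacteria, had the next highest level. It measured 35.6 FPKM with PRP and 12.4 FPKM in the control, a ratio of 2.88 (2.61 to 3.18) and a log2 fold change of 1.45. Its read numbers were 3592 and 1062. The gene lies at 142620602-142638008 of chromosome 3, and 24 of its 2516 exon bases lie opposite the microRNA gene Mir6381. The kit keeps the strand, but the sources used here do not say whether the counting used it.

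Gbp5, a GBP that promotes assembly of the NLRP3 inflammasome, was low in the control. It had 0.406 FPKM there (92 reads) and 2.73 FPKM with PRP (726 reads). The ratio of 6.71 (4.93 to 9.34) was the largest among the 4 GBPs of the chromosome 3 cluster, and the log2 fold change was 1.41. Gbp7, at 142530342-142550149 between Gbp5 and Gbp3, differed less than its neighbours. It had 6.89 FPKM with PRP and 3.76 FPKM in the control, a ratio of 1.83 (1.62 to 2.08). The pseudogene Gm43802 shares 637 exon bases with it (11.3% of its exon length) and was itself at 8.92 and 5.89 FPKM, a ratio of 1.52.

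Gbp4 is the only one of the 5 GBPs in the other cluster, on chromosome 5 (105115767-105139586, minus strand). It stayed under 1 FPKM in both libraries, at 0.432 FPKM with PRP and 0.0469 FPKM in the control. These levels rest on 130 and 12 reads, so the ratio of 9.22 had a wide interval, from 4.01 to 26.0. Because of the pseudocount the log2 fold change was 0.45, which 1328 tested genes exceeded.

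The IRGs differed by less than the GBPs, with a summed level of 66.0 FPKM with PRP and 30.3 FPKM in the control and a ratio of 2.17. All 3 lie on chromosome 11. Igtp, which protects the cell's own lipid droplets and endoplasmic reticulum from other IRGs, had 27.2 FPKM with PRP and 9.59 FPKM in the control. Its ratio was 2.84 (2.51 to 3.22), close to that of Gbp2, and its log2 fold change was 1.41. Irgm2, which is found at the Golgi, had 18.9 FPKM with PRP and 8.39 FPKM in the control, a ratio of 2.25 (2.03 to 2.49). The intervals of Igtp and Irgm2 did not overlap, although the genes are neighbours. Igtp lies at 58199556-58207591 and Irgm2 at 58199618-58222782, both on the plus strand, and they share 162 exon bases (8.01% of the exon length of Igtp and 4.39% of that of Irgm2). How reads from shared bases were counted is not given in the sources used here.

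Irgm1, which controls autophagy and mitochondrial shape and restrains interferon responses, had the smallest ratio of the 10 genes. It measured 19.9 FPKM with PRP and 12.4 FPKM in the control (4639 and 2450 reads), 1.61-fold higher with an interval of 1.5 to 1.73 and a log2 fold change of 0.65. In the control library its level could not be separated from that of Gbp2, since their counting intervals overlapped, whereas with PRP Gbp2 was clearly above it. Irgm1 lies away from Igtp and Irgm2, at 48861968-48871683 on the minus strand. Its locus holds other IRG genes, such as 9930111J21Rik1, which is within 100 kb of it.

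The Mx genes had the lowest summed level of the 3 families and the largest ratio of sums. Their summed level was 12.4 FPKM with PRP and 1.71 FPKM in the control, a ratio of 7.27. Mx2, whose product acts in the cytoplasm, had 10.6 FPKM with PRP and 1.64 FPKM in the control, 6.49-fold higher (5.27 to 8.07). Of all genes tested, 13 had a larger log2 fold change than its 2.14. Mx1, whose product acts in the nucleus against influenza viruses, had 1.78 FPKM with PRP and 0.0695 FPKM in the control. Its ratio of 25.6 was the largest of the 10, with an interval from 9.76 to 95.6, since the control level corresponds to as few as 8 reads against 241 with PRP. For both Mx genes the reads did not come out whole with the gene model used, so their intervals rest on the smallest pair of read numbers with that ratio. They lie side by side on chromosome 16, Mx1 at 97447035-97462907 on the minus strand and Mx2 at 97535308-97560900 on the plus strand. Many laboratory mouse strains carry Mx genes that give no working protein, and the annotation lists Mx2 as a polymorphic pseudogene, so that these are levels of RNA and say nothing of the proteins.

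**Figure D3:**
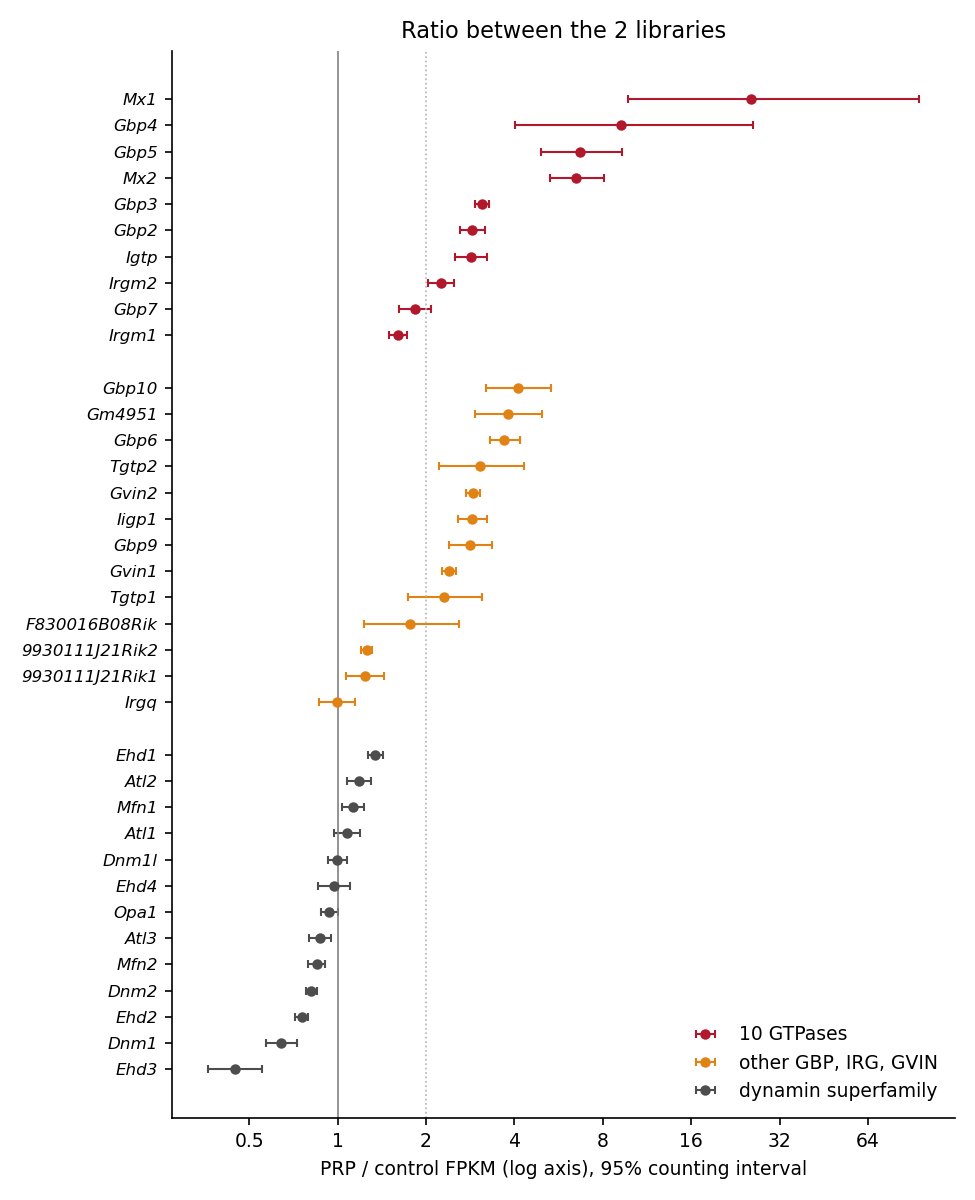
Ratio of PRP to control FPKM (log axis) with 95% counting intervals for the 10 GTPases (red), for the tested genes among the other GBP, IRG and GVIN genes (orange) and for tested genes of the dynamin superfamily (grey). The 10 GTPases range from 1.61 (Irgm1) to 25.6 (Mx1), and the dynamin superfamily from 0.448 (Ehd3) to 1.34 (Ehd1).

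The 4 genes under 2 FPKM in the control library (Gbp4, Gbp5, Mx1 and Mx2) were more than 4-fold higher with PRP, and the other 6, all above 3 FPKM in the control, had ratios from 1.61 to 3.11. Since the control level is the denominator of the ratio, this split is a description only. Among the 6, the ratio did not follow the control level, as Gbp3 had the highest level and the largest ratio, while Gbp7 had the lowest level and a ratio of 1.83. The order of the levels was largely kept. With PRP it ran Gbp3, Gbp2, Igtp, Irgm1, Irgm2, Mx2, Gbp7, Gbp5, Mx1 and Gbp4, and of the neighbours in that order only Irgm1 and Irgm2 had counting intervals that overlapped. In the control it ran Gbp3, Gbp2, Irgm1, Igtp, Irgm2, Gbp7, Mx2, Gbp5, Mx1 and Gbp4, with overlapping intervals between Gbp2 and Irgm1, between Igtp and Irgm2, and between Mx1 and Gbp4. Of the 45 pairs of genes, 2 changed order, which were Igtp with Irgm1 and Mx2 with Gbp7. The GBPs held 63.8% of the summed level with PRP and 59.1% in the control, the IRGs 30.5% and 38.7%, and the Mx genes 5.73% and 2.18%.

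To see whether the relatives of the 10 genes moved with them, the other GBPs, IRGs and very large inducible GTPases (GVINs) were read in the same way. Of 28 names listed, 21 were in the files and 13 were tested. Of these 13, 12 were higher with PRP, 8 were at least 2-fold higher, and the median log2 fold change was 1.17. The shares of all genes tested were 50.9% higher and 2.00% at least 2-fold higher. Tgtp2, which is 1 of the 8, and F830016B08Rik had under 1 FPKM in the control and passed only through the PRP library. The largest were Gbp6 (12.8 and 3.45 FPKM, a ratio of 3.70 with an interval of 3.29 to 4.17), Gvin2 (32.3 and 11.2 FPKM, 2.89, 2.74 to 3.05) and the IRG gene Gm4951 (5.97 and 1.57 FPKM, 3.80, 2.93 to 4.99). The family did not move as 1 block. Chosen after their values were seen, the IRG gene 9930111J21Rik2 (38.0 and 30.2 FPKM) had a ratio of 1.26 (1.20 to 1.31), and Irgq (3.73 and 3.75 FPKM), an IRG relative that lacks a typical GTP-binding site, had a ratio of 0.995 (0.867 to 1.14). Gbp2b, the close paralog of Gbp2, was listed at 0 reads in both libraries, which allows up to 0.0530 FPKM with PRP and 0.0623 FPKM in the control. Paralogs of these families have long stretches of like sequence, and how reads that match several of them were treated is not given in the sources used here, so the split between such genes is uncertain.

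Dynamins, mitofusins, atlastins and EHD proteins have related GTPase domains but serve membrane fission and fusion, and they did not share the difference. Of 14 such genes, 13 were tested, and 4 were higher and 9 lower with PRP. On the scale of FPKM + 1, none of the 13 was 2-fold higher or lower, where 268 and 111 of the 13401 genes tested were. With shares that small, the absence of such a gene among 13 says little by itself. Their median log2 fold change was -0.09. Ehd3, which acts in endosome recycling, had the largest difference, with a log2 fold change of -0.71. Its ratio without the pseudocount was 0.448 (0.362 to 0.552), which is past 2-fold lower. Dnm1 followed at -0.54 and Ehd1 at 0.42, both on the log2 scale.

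The neighbours of the 10 genes on the chromosome gave a local comparison. The genes form 5 loci, and 19 other genes within 100 kb of them were tested, leaving out the GBPs and IRGs already listed. Of the 12 protein-coding ones, 1 was at least 2-fold higher, and their median log2 fold change was 0.11. That one was Gm43302 (17.1 and 4.45 FPKM, a ratio of 3.85), which shares 1726 exon bases with Gbp6 and 1792 with Gbp10 and so cannot be separated from those GBPs. The other 11 had ratios from 0.901 (Trim41) to 1.35. The largest of these were 1.35 for Gemin5 (1.18 to 1.53), 1.34 for Psme2b (1.04 to 1.74) and 1.33 for Mrpl22 (1.16 to 1.52), and their intervals lay above 1. Smaller ratios were 1.14 for Pdlim5 (a muscle and cytoskeleton adaptor beside Gbp5), 1.04 for Rack1 (a ribosomal scaffold beside Irgm1) and 0.997 for Cnot8 (a subunit of the deadenylase complex beside Igtp). The 7 neighbours of other gene types included 2 at least 2-fold higher, which were Mir6381 (18.9 and 6.06 FPKM), within Gbp2, and the small nucleolar RNA Snord95 (8.43 and 0.431 FPKM). Both ratios had wide intervals, from 1.46 to 7.41 for Mir6381 and from 1.74 to 21232 for Snord95. Within the Gbp4 locus, the GBP genes Gbp9 (6.07 and 2.14 FPKM) and Gbp10 (4.72 and 1.15 FPKM) had ratios of 2.83 and 4.11. At the Igtp locus the IRG gene Gm12250, annotated as a processed pseudogene, had 1.64 and 0.506 FPKM, a ratio of 3.25 (1.64 to 7.0), and like Snord95 it passed only through the PRP library.

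**Figure D4:**
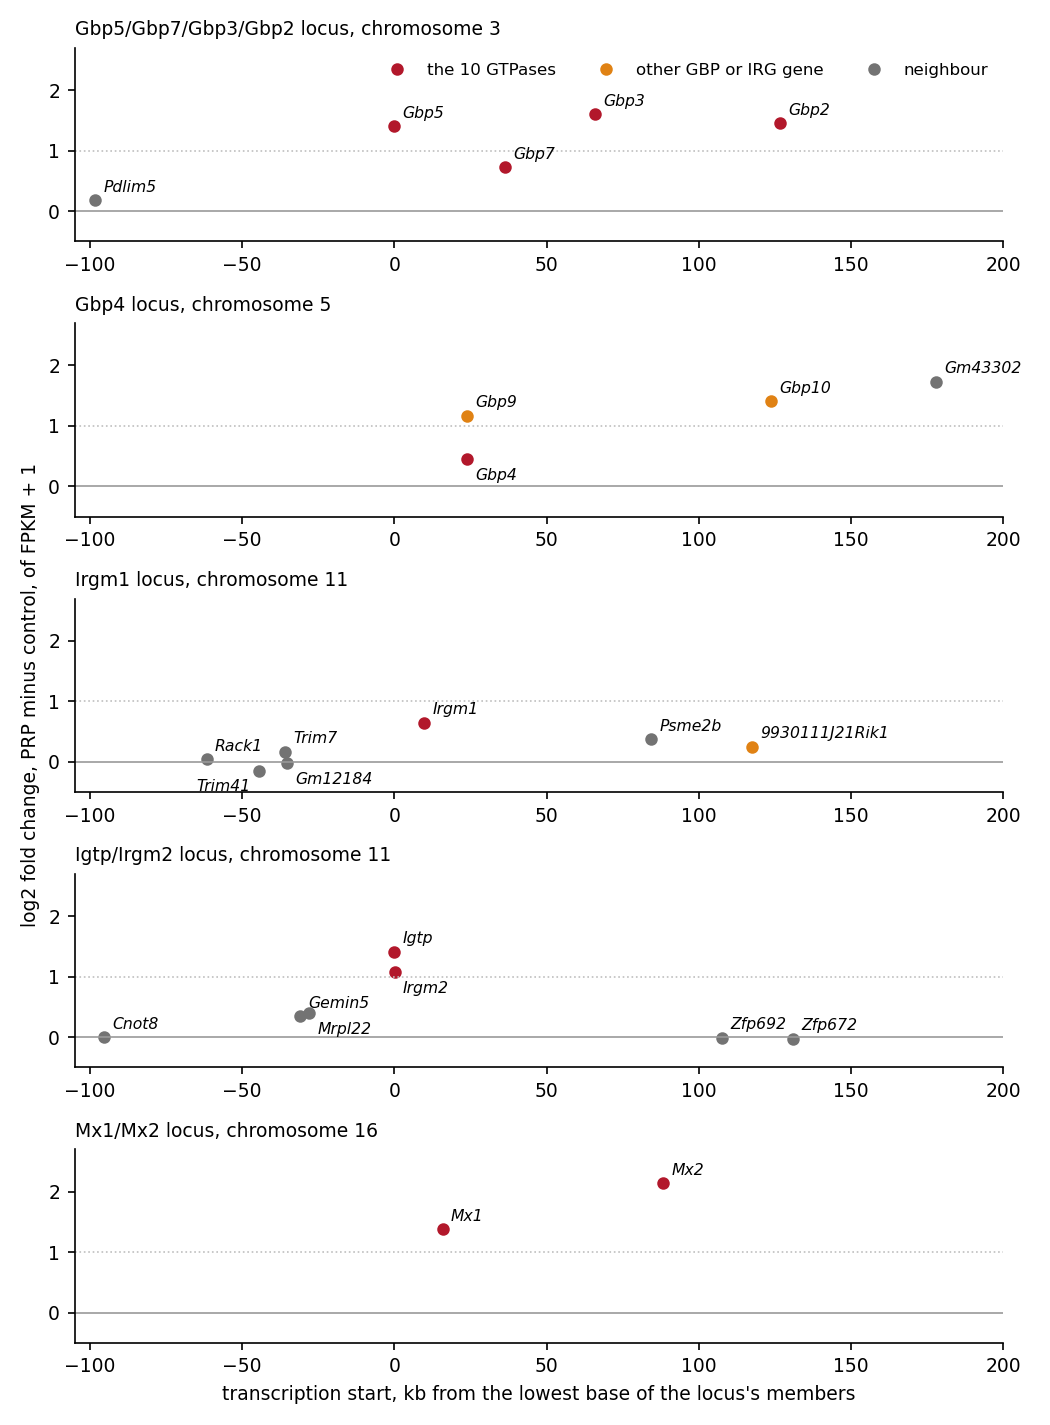
Log2 fold change (PRP minus control, FPKM + 1) of the 10 GTPases (red), of other GBP and IRG genes (orange) and of tested protein-coding neighbours (grey), against the distance of their transcription start in kb from the lowest base of each of 5 loci. Apart from Gm43302, which shares exons with Gbp6 and Gbp10, the neighbours lie between -0.14 (Trim41) and 0.39 (Mrpl22).

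The pathway through which interferon can induce these genes was read from ligand to transcription factor. Whether it acted in these cells was not tested. Of 21 interferon genes listed, 7 were in the files and 0 were tested, since their levels were far under 1 FPKM. Ifnb1, the interferon beta gene, had 6 reads with PRP and 2 in the control, and Ifng had 0 reads in both, which allows up to 0.115 and 0.136 FPKM. Of 16 receptors, kinases and transcription factors, 14 were tested, 11 were higher and 3 lower, 2 were at least 2-fold higher, and the median log2 fold change was 0.19. Among all genes tested, 50.9% were higher and 2.00% at least 2-fold higher. Chosen after their values were seen, the receptor chains Ifnar1 (5.39 and 5.37 FPKM) and Ifngr1 (20.5 and 17.5 FPKM) had ratios of 1.0 (0.894 to 1.13) and 1.17 (1.07 to 1.28).

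The largest differences within the pathway were those of the factors Irf7, Irf1 and Stat2. Receptors and kinases differed by less, for example Jak2 with a ratio of 1.23 (1.15 to 1.31) and Jak1 with 0.951 (0.921 to 0.981). Irf7, which amplifies type I interferon production, had 11.6 FPKM with PRP and 3.18 FPKM in the control (a ratio of 3.65, 3.13 to 4.27). Irf1, an activator of many GBP genes, had 15.4 and 6.06 FPKM (2.55, 2.27 to 2.85), and Stat2 had 40.1 and 24.3 FPKM (1.65, 1.57 to 1.73). Among 5 negative regulators, Usp18, which blocks the type I interferon receptor and is itself induced by it, was the 1 gene at least 2-fold higher (28.4 and 7.96 FPKM, a ratio of 3.56). Socs3 had a ratio of 1.15, Ptpn2 1.15 and Pias1 0.813, while Socs1 was not tested (22 and 16 reads).

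Genes that respond mainly to type I interferon were compared with genes that respond mainly to interferon gamma. Of 13 type I genes, 11 were tested, 11 were higher with PRP and 7 were at least 2-fold higher, with a median log2 fold change of 1.18. Rsad2 and Ifi44, which are among the 7, and Oas2 had under 1 FPKM in the control and passed only through the PRP library, so that their differences were built into the filter. The largest were Isg15 (159.6 and 35.7 FPKM), Ifit1 (25.3 and 6.53 FPKM) and Rsad2 (2.82 and 0.392 FPKM). Of 11 interferon gamma genes, 5 were tested, 4 were higher and 1 lower, 2 were at least 2-fold higher, and the median was 0.56. The 2 were the chemokine gene Cxcl9 (2.56 and 0.466 FPKM) and the adhesion molecule gene Icam1 (15.7 and 6.80 FPKM), of which Cxcl9 passed only through the PRP library. Cd274 had a ratio of 1.59, Psmb8 1.41 and the class II gene H2-Ab1 0.853. Whether these lists differ could not be tested with 1 library per group.

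The partners with which GBPs and IRGs work had a median log2 fold change of 0.08, near the median of all genes. Single partners differed in either direction. Of 18 genes of the autophagy conjugation system, which places these GTPases on membranes, and of the inflammasome, 16 were tested. Of these 16, 9 were higher and 7 lower, where 50.9% of all genes tested were higher. None of the 16 was 2-fold higher or lower, where 268 and 111 of the 13401 genes tested were, so that count says little by itself. The largest differences among the 16 were those of the autophagy receptor Sqstm1 (719 and 386 FPKM, a ratio of 1.86), of Casp4, which senses cytosolic lipopolysaccharide (8.06 and 4.35 FPKM, 1.85), and of the autophagy protein Gabarapl1 (40.9 and 29.8 FPKM, 1.37). On the lower side were Gsdmd at 0.758 (0.635 to 0.905) and Pycard at 0.661 (0.482 to 0.904). The genes not tested were Aim2 (51 reads with PRP and 25 in the control) and Nlrp3 (56 and 0 reads).

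**Figure D5:**
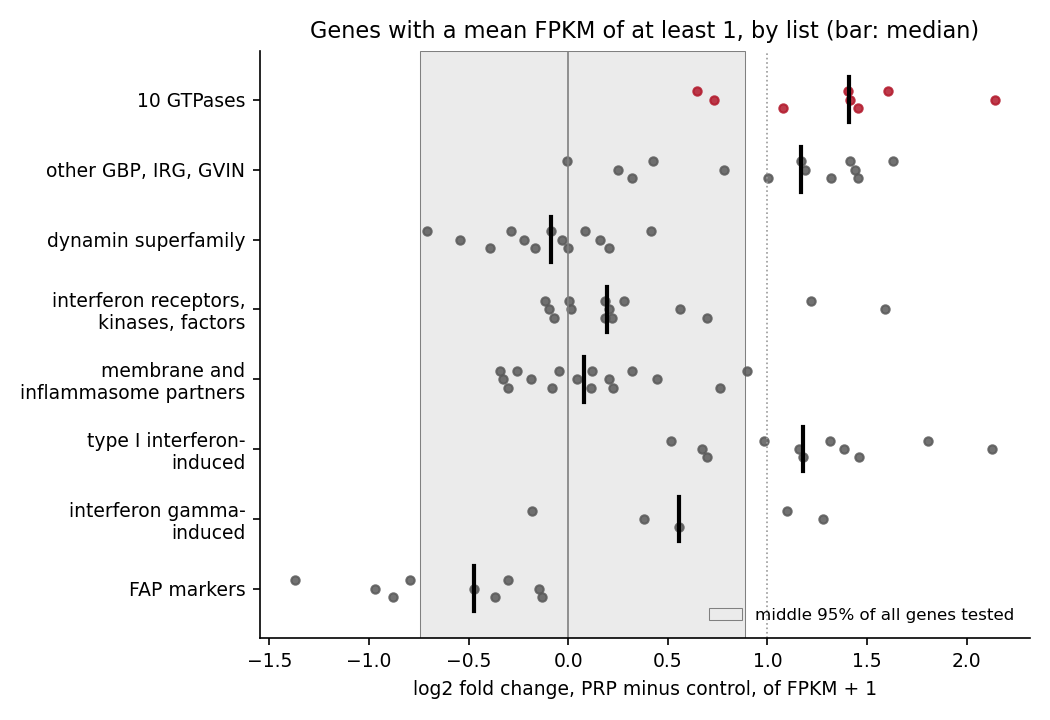
Log2 fold change (PRP minus control, FPKM + 1) of every tested gene in 8 lists, with a black bar at each median and the middle 95% of all genes tested in grey. The GTPases (median 1.41) and their GBP, IRG and GVIN relatives (1.17) lie to the right with the type I interferon-induced genes (1.18), whereas the medians of the dynamin superfamily (-0.09) and of the partners (0.08) lie near 0.

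The ISRE core was also counted in the promoters of these lists. It was present in 5 of 8 windows of the other GBP, IRG and GVIN genes, in 6 of 11 windows of the type I interferon genes, in 0 of 7 windows of the interferon gamma genes and in 0 of 13 windows of the dynamin superfamily. Over the whole data set it was present in 20 of the 119 genes at least 2-fold higher with PRP that had a window (16.8%), in 1 of 34 genes at least 2-fold lower (2.94%) and in 3.48% of those under 2-fold in either direction. The 20 include the GTPases Gbp2, Gbp3, Gbp5, Igtp and Irgm2 and their relative Tgtp2. This share is therefore not separate from the counts of the lists. In the same order of lists, the GAS core was present in 3 of 8, 2 of 11, 2 of 7 and 0 of 13 windows. It was present in 18 of the 119 genes at least 2-fold higher (15.1%), Gbp5, Igtp, Irgm2 and Tgtp2 among them. The share was 4 of 34 genes at least 2-fold lower (11.8%) and 7.80% of those under 2-fold. Since all 7 GTPase windows held the ISRE core, its presence could not be set against the size of their ratios.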

How the data were processed

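RNA-seq of 2 libraries was used, 1 per group, grouped by their titles. According to the submitters' processing notes, fastp 0.23.4, STAR 2.5.3a and featureCounts were used with mm10. The deposited values are FPKM, which the authors computed per gene from their counts. The conversion and the annotation release are not given in the sources used here. Reads were recovered with exon lengths of GENCODE M21 (release 21), and 26406 of 28160 genes above 0 (93.8%) came out whole in both libraries within 0.001 reads. Since even numbers were in excess (79.3% and 80.3% of low genes), as when both mates of a pair are counted, intervals used reads divided by 2. They ignore PCR duplicates. No test for counts was run on the recovered reads, which served for depth and intervals alone.

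Genes entered with a mean of at least 1 FPKM, a pseudocount of 1 and a threshold of 2-fold. A level at 0 was bounded at 3 fragments of 2 reads each. Neighbours were genes within 100 kb. Promoter letters were read from RefSeq windows of GRCm38.p6, and pairs of windows were aligned locally. The 10 genes were named with all values. Of the other gene lists and markers, every tested gene was named where at most 8 were tested, otherwise the 3 with the largest absolute log2 fold change, and further genes were picked once their values had been seen. The genes and all lists were chosen with earlier results of these data known. Names listed but absent from the tables used were not analysed here. Alternatives were pseudocounts of 0.1 and 5, other filters, rescaling, centring and thresholds of 1.5 and 4-fold. Python 3.11.15, NumPy 2.4.6, pandas 2.3.3, SciPy 1.17.1, Biopython 1.88 and matplotlib 3.10.9 were used, and the procedures were tested on simulated data. A gene of the pathway lists is not reported here.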

Additional observations from a re-analysis of the deposited data

How the results depend on the processing

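The differences of the 10 GTPases kept their direction under every alternative run. The 67 values of single genes ran from 0.11 to 3.47 on the log2 scale, and no gene at least 2-fold different changed sign. A pseudocount, a filter or a threshold cannot change the sign of a difference. Only rescaling and centring could have done so. The median of all genes stayed between -0.02 and 0.01. Of the 8 genes tested, 8 were past a threshold of 1.5-fold but 1 (Mx2) was past 4-fold. With a pseudocount of 5 the median of the GTPases moved to 0.99, with 4 genes at least 2-fold higher, and without a filter 7 of 10 were. The median of the other GBP, IRG and GVIN genes moved to 1.46 with a pseudocount of 0.1, to 0.63 with a pseudocount of 5, to 0.46 without a filter and to 1.37 after rescaling without mitochondrial genes and the 50 most abundant genes. The share of all genes at least 2-fold higher moved to 3.51%, 0.627% and 1.03% with a pseudocount of 0.1, a pseudocount of 5 and no filter, and 6.15% of genes were past 1.5-fold and 0.172% past 4-fold. The numbers of such genes were 471, 84, 306, 824 and 23 in place of 268. A pseudocount shrinks or widens the change of low genes by its construction, and the filter changes which genes are counted, while the cause of the move after rescaling was not tested. No GTPase shared at least 50% of its exon length with another gene (the highest share was 11.3%), so leaving such genes out removed none. No paired analysis was possible because 1 library stands for each group. Depth limits Mx1 and Gbp4 most, whose control levels rest on as few as 8 and on 12 reads.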

Other observations

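Markers of other cell types were read beside the GTPases as values. Of 7 adipocyte markers tested, 5 were higher and 2 lower with PRP, with a median log2 fold change of 0.14, where 50.9% of all genes tested were higher. The counting interval of the ratio lay above 1 for Pparg and Fabp4 and below 1 for Lpl. For the other 4 it held 1. Pparg, the master regulator of adipocytes, had 8.69 FPKM with PRP and 6.55 FPKM in the control, and Fabp4 (40.7 and 33.6 FPKM), Cebpa (13.5 and 12.2 FPKM), Adipoq (5.49 and 5.22 FPKM) and Cfd (2.92 and 2.22 FPKM) were on the same side. Lpl (67.4 and 83.3 FPKM) and Plin1 (1.73 and 2.10 FPKM) were lower with PRP. The 10 endothelial markers summed to 11.0 and 7.34 FPKM, most of it from Kdr (4.23 and 1.5 FPKM), Tek (4.73 and 3.56 FPKM) and Flt1 (1.25 and 1.83 FPKM), while Cldn5 had 0 reads in both libraries. Among myogenic genes, Pax7 and Myog had 0 reads in both libraries, whereas Tnnc1 (21.2 and 8.75 FPKM), Acta1 (15.1 and 11.1 FPKM) and Des (2.91 and 3.39 FPKM) were detected. The inflammasome sensor gene Nlrp3, whose product Gbp5 acts on, had 56 reads with PRP and 0 in the control, and was under the filter at 0.344 FPKM. Genes under the filter that are named here were chosen after their values were seen.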
